A study of Mus musculus with 10 samples.

Results

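The contacts described here are the promoter contacts that were listed in WT neutrophils and not in the files of haematopoietic stem and progenitor cells (HSPCs). A pair absent from the HSPC files missed their listing score, and its HSPC scores are not known. Members were chosen by listing alone: a pair of the neutrophil files was kept when its bait and other-end coordinates did not both occur together in the HSPC files. This gave 11529 neutrophil-only pairs of 25622 neutrophil pairs (45.0%) and of 100153 pairs in all. A pair joins a bait, which is a captured HindIII fragment with a promoter, to another HindIII fragment, the other end. Each pair carries 1 deposited interaction score per library, and its scale is not given in the sources used here. All neutrophil pairs scored 5 or more in both replicates, and the HSPC files hold pairs that reached 5 in both libraries of some HSPC genotype. The neutrophil scores chose the members, so all statements on the listing of these pairs are descriptions with no test.

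Promoter-capture Hi-C ligates crosslinked fragments that lie close together in the nucleus and enriches those that hold a promoter. The series has 10 libraries from C57BL/6 mice, 2 biological replicates in each of 5 groups. Bone marrow neutrophils came from WT mice through a neutrophil isolation kit. Lineage-negative marrow cells (HSPCs) came from WT mice, from Npm1c mice (Npm1flox-cA/+;Mx1-Cre+), from Flt3-ITD mice (Flt3ITD/+) and from double mutants (DM, which are Npm1flox-cA/+;Flt3ITD/+;Mx1-Cre+). Npm1c sends nucleophosmin to the cytoplasm, Flt3-ITD keeps a cytokine receptor active, and Mx1-Cre is switched on by interferon in blood cells and other tissues. No mutant neutrophils were analysed here. Ages, the number of mice per library and whether WT mice carried Mx1-Cre are not given in the sources used here. The lineage-negative fraction is a mixture of progenitors. The files hold no expression values, so the identity of the cells could not be checked against RNA markers. A contact made in more cells and a contact made more often per cell cannot be told apart in such bulk libraries.

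Neutrophils are short-lived white cells with a lobed, condensed nucleus. They roll on vessel walls through selectins, follow CXC chemokines into tissue by remodelling actin, and kill microbes with granule proteins. Distal enhancers act on promoters across long genomic distances, and promoter contacts are one view of which stretches of chromatin lie near a gene.

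The neutrophil-only pairs used 4599 of the 6746 baits with a neutrophil pair and 9698 other ends. Most baits had few: 2570 (55.9%) had 1 such pair and 1851 had 2 to 9. At the other end of the range, 178 baits (3.87%) had at least 10, here called hubs, and held 2826 pairs (24.5%). A protein-coding gene was assigned to 136 of the 178 hubs, by its start site or, for genes without a listed start site, by either gene end. The sequences below are shown because they are the promoters of the leading hubs, which the first results describe. They are the 250 bases upstream of the RefSeq start site (GRCm38.p6, which is mm10), taken 5′ to 3′ on the gene's strand for those of the 10 leading gene-bearing hubs that could be shown. Capitals mark matches on either strand to GAGGAAGT (PU.1), TGANTCA (AP-1), TTGCNNAA (C/EBP), TGTGGT (RUNX), TATAAA or a CTCF core motif.
Selp (chr1:164115014-164115263, plus strand): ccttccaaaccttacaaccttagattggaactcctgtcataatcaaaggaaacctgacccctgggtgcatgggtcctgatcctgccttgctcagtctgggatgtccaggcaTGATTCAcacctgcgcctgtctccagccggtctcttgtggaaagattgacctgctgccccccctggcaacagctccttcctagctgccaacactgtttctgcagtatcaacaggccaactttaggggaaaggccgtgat
Cxcl3 (chr5:90785851-90786100, plus strand): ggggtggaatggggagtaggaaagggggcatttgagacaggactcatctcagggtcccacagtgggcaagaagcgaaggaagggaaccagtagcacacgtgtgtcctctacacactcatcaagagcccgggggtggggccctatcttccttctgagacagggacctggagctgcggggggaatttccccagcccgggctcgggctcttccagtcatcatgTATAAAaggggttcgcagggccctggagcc
Tbl1xr1 (chr3:22076402-22076651, plus strand): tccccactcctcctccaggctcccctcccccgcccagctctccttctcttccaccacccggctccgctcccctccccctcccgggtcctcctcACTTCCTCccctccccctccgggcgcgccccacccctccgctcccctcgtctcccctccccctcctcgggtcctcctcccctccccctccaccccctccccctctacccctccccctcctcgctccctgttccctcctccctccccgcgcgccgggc
Klhl2 (chr8:64849925-64850174, minus strand): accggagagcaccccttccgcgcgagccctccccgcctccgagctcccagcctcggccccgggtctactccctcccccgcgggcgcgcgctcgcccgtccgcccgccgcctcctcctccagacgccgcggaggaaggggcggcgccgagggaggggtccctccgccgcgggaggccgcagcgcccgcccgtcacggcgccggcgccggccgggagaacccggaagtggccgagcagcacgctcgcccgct
Tmpo (chr10:91171620-91171869, minus strand): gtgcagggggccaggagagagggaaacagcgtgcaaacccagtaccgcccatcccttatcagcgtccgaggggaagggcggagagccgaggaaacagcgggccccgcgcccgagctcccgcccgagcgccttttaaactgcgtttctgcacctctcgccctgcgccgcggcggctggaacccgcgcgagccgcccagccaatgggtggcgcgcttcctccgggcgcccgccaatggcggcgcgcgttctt
Syne1 (chr10:5069064-5069313, minus strand): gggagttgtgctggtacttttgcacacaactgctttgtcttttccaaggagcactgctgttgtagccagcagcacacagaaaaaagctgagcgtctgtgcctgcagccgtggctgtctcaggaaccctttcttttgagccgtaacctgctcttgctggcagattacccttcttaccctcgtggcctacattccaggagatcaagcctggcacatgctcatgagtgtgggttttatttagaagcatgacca

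Capitals stand in 3 of these promoters: an AP-1 match in Selp, a TATAAA in Cxcl3 and, on the opposite strand, a PU.1 match in Tbl1xr1. Over 300-base windows that also take 50 bases after the start, the PU.1 letters occurred in 7 of 132 hub promoters (5.30%) and in 3.13% of all 21263 promoters in the table. C/EBP letters were in 9.85% of hub promoters and 10.2% of all. The RUNX letters were found in 9.09% and 15.0%, the AP-1 letters in 6.82% and 6.99%, the CTCF letters in 3.03% and 2.34%, and TATAAA in 12.1% and 12.6%. Promoters of baits with no neutrophil-only pair had PU.1 letters in 2.72%, C/EBP in 8.48%, RUNX in 13.2%, AP-1 in 6.33%, CTCF in 2.69% and TATAAA in 9.72%. Against these, the hub shares of C/EBP, AP-1 and TATAAA lay above instead of below. Hub promoters had a median GC content of 59.0% and a median of 19 CpG, against 56.3% and 13 in the whole table and 59.0% and 18 in the promoters of baits with no neutrophil-only pair. These are letter matches only, in windows that may overlap where a gene has several start sites.

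Neighbouring endothelial and platelet genes on chromosome 1 were among the hubs. Selp, for P-selectin of platelets and endothelium, had 36 pairs in neutrophils and no pair in the HSPC files. Its scores averaged 7.19 in replicate 1 and 7.49 in replicate 2, and ran from 5.21 to 10.6 and from 5.23 to 11.6. Sele, for the endothelial E-selectin, had 18 of 19 pairs neutrophil-only (means 8.45 and 7.75), all at higher coordinates. F5, for coagulation factor V, had 15 of 18 (means 8.20 and 7.58), all at lower coordinates. These 3 baits together had 69 neutrophil-only pairs of 73 and 4 HSPC pairs.

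Promoters of this group also met each other. Sele with Selp, 61.1 kb apart, scored 11.6 and 9.30 from the Sele bait and 6.51 and 8.15 from the Selp bait. Sele with F5, 102 kb apart, scored 9.27 and 8.84 from Sele and 8.61 and 8.96 from F5. Both combinations were listed from both baits in neutrophils, and the scores of Sele with F5 lay closer together than those of Sele with Selp. The best pair of Selp lay within its own gene body, 12.2 kb away, at 10.3 and 11.6.

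**Figure D1:**
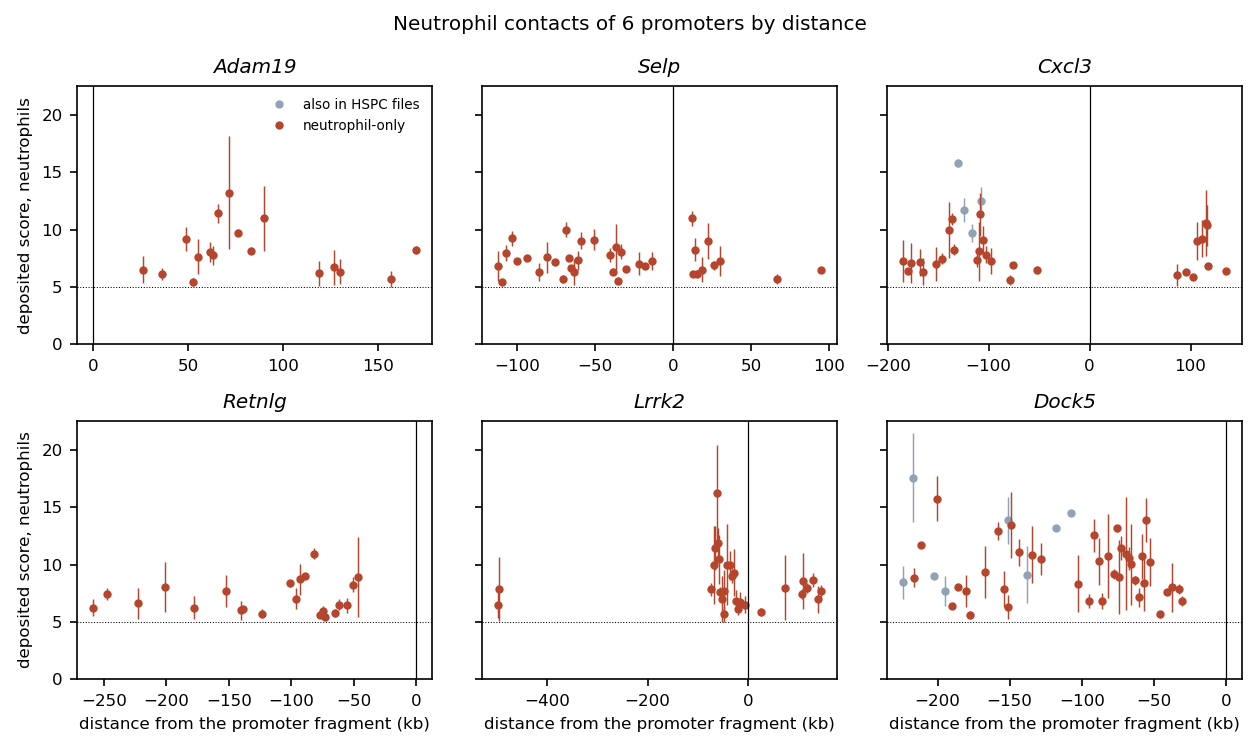
Deposited scores of the neutrophil pairs of 6 promoters against the distance in kb from the promoter fragment (negative values lie at lower coordinates). Points are means of 2 replicates, lines join both replicate scores, red marks neutrophil-only pairs, blue-grey marks pairs also in the HSPC files, and the dotted line is the listing score of 5. The neutrophil-only pairs of Retnlg, Dock5 and Adam19 lie on 1 side only, and Selp, Retnlg, Lrrk2 and Adam19 have no blue-grey point.

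The CXC chemokine locus on chromosome 5 followed the same layout. Its baits carry Cxcl3 and Cxcl1, ligands of the neutrophil receptor CXCR2, Cxcl15, the platelet chemokines Pf4 and Ppbp on 1 fragment, and the neighbouring Rassf6. These 5 baits had 83 neutrophil pairs, of which 77 were neutrophil-only, and 8 HSPC pairs. Cxcl3 led with 28 of 32, at mean scores of 8.56 and 7.05, and Cxcl1 had 18 of 19, at 7.86 and 7.16. The Pf4 and Ppbp fragment had 12 pairs, none shared. Cxcl3 with Cxcl1 scored 10.7 and 7.32 over 106 kb, and 7.27 and 5.87 from the Cxcl1 bait. Cxcl1 with Rassf6, 253 kb apart, scored 9.17 and 8.18. Cxcl1 contacts all lay towards Cxcl3 and Rassf6, and none lay beyond Cxcl1.

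Retnlg encodes resistin-like gamma, a secreted protein of granulocytes, and its family cluster on chromosome 16 had no HSPC pair at all. The baits of Trat1, Retnlb, Retnla and Retnlg had 58 neutrophil pairs, all neutrophil-only, and 22 of them belonged to Retnlg (means 7.23 and 7.04). All 22 lay at lower coordinates, 46.6 to 259 kb away, and the best reached the body of Trat1 at 11.4 and 10.5. Retnlb with Retnlg scored 13.3 and 9.09 from Retnlb and 7.10 and 5.78 from Retnlg. The S100a8 and S100a9 promoters, which encode the abundant calprotectin subunits of neutrophils, had fewer: 2 of 6 and 2 of 5 neutrophil pairs were neutrophil-only, and the HSPC files list 16 and 28 pairs for them.

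Signalling to actin gave further hubs. Dock5, an exchange factor that activates Rac, had 39 of 47 pairs neutrophil-only, with means of 10.2 and 8.86, all at lower coordinates. Its best pair reached the body of Kctd9, 200.2 kb away, at 17.7 and 13.8. Elmo1, which works with Dock proteins, had 18 of 20 (means 6.78 and 7.06). Prkcb, a protein kinase C isoform, had 15 of 17. Lcp1, the actin bundling protein L-plastin, shares its bait with Lrrc63 and had 18 pairs, none of them in the HSPC files; a second hub inside the Lcp1 body had 23.

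The hub with most neutrophil-only pairs and a gene was B4galt6, a lactosylceramide synthase, with 46 of 51 (means 9.22 and 8.70). Klhl2, an adaptor of a ubiquitin ligase, had 42 of 54 (means 9.99 and 11.0) and reached 21.9 and 20.0 with an intergenic fragment 112 kb away. Tmpo, which encodes a lamina-associated protein of the nuclear envelope, had 37 of 53, with means of 10.1 and 9.50 and a best pair at 18.01 and 20.2. Syne1, for nesprin-1 of the outer nuclear membrane, had 34 of 34, all at higher coordinates and 134 to 355 kb away. A second bait within Syne1 (chr10:5354148-5359204) had 50 of 50, and its pair with chr10:5110178-5114685 in the same gene was the neutrophil-only pair with the highest lower score, at 21.0 and 23.2. The Syne1 start-site fragment with that second bait scored 24.2 and 14.2. Tbl1xr1, of a nuclear receptor corepressor complex, had 29 of 38, and Rwdd2b 28 of 44. The replicates of that last Syne1 pair lay far apart, while those of the leading Syne1 pair did not.

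Among gene-bearing baits with at least 10 neutrophil pairs, Selp, Syne1, Lrrk2, Retnlg and Hgf led those with every pair neutrophil-only. Lrrk2, a kinase of vesicle traffic, had 28 pairs with means of 7.18 and 9.65, and the best of them, 63.3 kb away, scored 12.1 and 20.4. Hgf, hepatocyte growth factor, had 19, the best at 7.74 and 11.9 with the body of Cacna2d1. Of the gene-bearing baits that the HSPC files never list, Selp, Retnlg, Hgf, the Lcp1 and Lrrc63 fragment and Adam19, a membrane metalloprotease with 17 pairs (means 8.99 and 7.19), had the most. Among baits without a gene start, chr10:5354148-5359204 within Syne1 (50 pairs) and chr1:193207524-193220566 (20 pairs) also had only neutrophil-only pairs and no HSPC pair. In all, 838 baits (18.2%) had neutrophil-only pairs and no HSPC pair, and they held 1726 pairs (15.0%). Only 17 hubs were among them, although 55 hubs had no pair at 5 or more in both WT HSPC replicates.

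**Figure D2:**
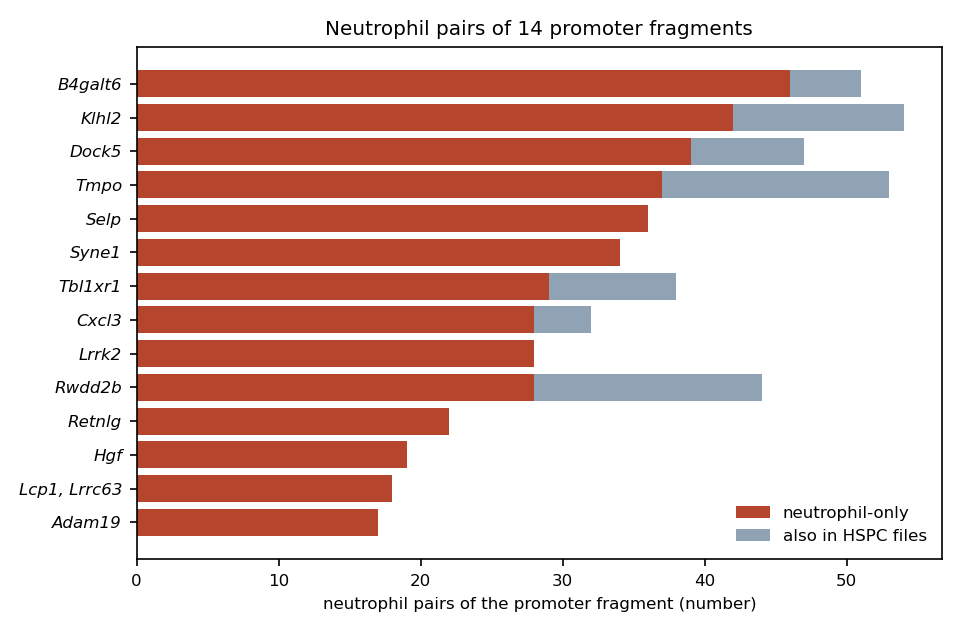
Number of neutrophil pairs at 14 promoter fragments, split into neutrophil-only pairs (red) and pairs also in the HSPC files (blue-grey). B4galt6 has 46 and 5, and Selp, Syne1, Lrrk2, Retnlg, Hgf, the Lcp1 and Lrrc63 fragment and Adam19 have no blue-grey part.

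Some hubs lay near each other along the genome. The 178 hubs formed 122 loci when hubs within 500 kb were joined, and 34 loci held more than 1 hub (90 hubs). Other baits were not joined in this way, so it is not known whether hubs lie closer together than baits in general. The locus with most pairs, at Carhsp1, Usp7 and 1810013L24Rik on chromosome 16, had 4 hubs and 102 neutrophil-only pairs; its leading bait, chr16:8790785-8795383, holds no gene start and had 61 of them. The Ptpre locus on chromosome 7, with Clrn3 and the proliferation marker Mki67, had 4 hubs and 88 pairs. Most neutrophil pairs of the Ptpre bait itself were shared with HSPCs, as 18 of 57 were neutrophil-only, and Mki67 had 14 of 26. The locus of Gucy2c, H2aj, Art4 and Erp27 on chromosome 6 had 5 hubs and 65 pairs. Neighbouring hubs share the stretch of chromatin they contact and are not independent. Of the 178 hubs, 80 had all neutrophil-only pairs on 1 side of the bait. The same was not counted for shared pairs or for other baits, so one-sidedness is not read as particular to hubs.

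Shared contacts of the same baits show how the HSPC libraries scored there. The 5 shared pairs of B4galt6 averaged 10.6 and 11.1 in the neutrophil libraries, 3.58 and 2.80 in WT HSPCs, 3.40 and 2.80 in Npm1c, 3.97 and 4.23 in Flt3-ITD, and 6.69 and 6.09 in DM HSPCs. At Dock5 the 8 shared pairs averaged 11.2 and 12.1 in neutrophils and 4.48 to 6.39 in the 8 HSPC libraries. The 16 shared pairs of Tmpo averaged 9.33 and 8.83 in neutrophils and 5.04 to 7.71 in HSPCs. Neutrophil and HSPC values did not overlap at B4galt6, Dock5 or Tmpo. All these pairs passed the neutrophil listing, so this is a description of selected pairs.

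**Figure D3:**
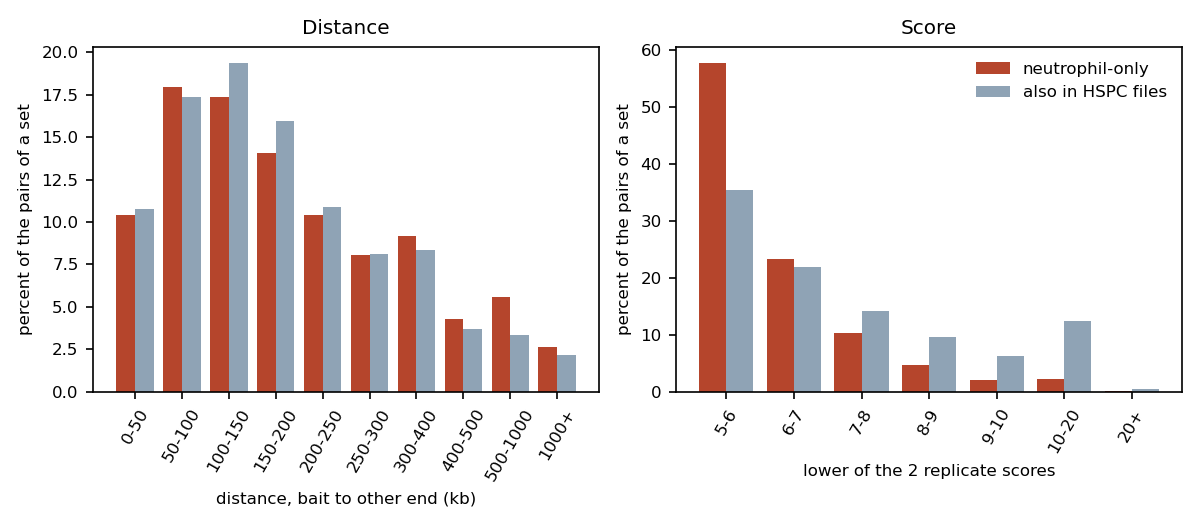
Percent of neutrophil-only pairs (red) and of neutrophil pairs also in the HSPC files (blue-grey) by distance from bait to other end in kb, and by the lower of both replicate scores. The distance bars are alike in shape, while 57.6% of the neutrophil-only pairs and 35.4% of the shared pairs have a lower score between 5 and 6.

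Taken over all pairs, the neutrophil-only contacts scored lower and spanned similar distances. Their median score was 6.45 in replicate 1 and 6.49 in replicate 2, against 7.79 and 7.72 for the 14093 shared pairs. At 10 or more in both replicates stood 248 neutrophil-only pairs (2.15%) and 1819 shared pairs (12.9%). The rank correlation of both replicates was 0.216 and 0.366 across pairs, which share baits and are not independent. The median distance was 163 kb (quartiles 90.9 and 277 kb) against 157 kb (91.0 and 253 kb), and 303 pairs of each set exceeded 1 Mb. Contacts of hubs were shorter, with a median of 136 kb against 174 kb at other baits. Just outside the rule, the 200 shared pairs with the lowest best HSPC score (5.00 to 5.06) had neutrophil medians of 6.80 and 6.71; just inside the neutrophil list, the 200 weakest members had lower scores of 5.00 to 5.02.

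Many neutrophil-only other ends lay close to a fragment that the same bait met in HSPCs. For 2357 pairs (20.4%) the HSPC files list an adjoining other end with the same bait, for 38.2% one within 10 kb, for 57.0% one within 50 kb and for 65.2% one within 100 kb. Shared pairs had another such HSPC fragment adjoining in 67.2% of cases. In the HSPC files, 544 of the neutrophil-only pairs were listed with bait and other end exchanged. A fragment-level listing is thus finer than a region: with every pair within 10 kb set aside, 7127 pairs and 81 hubs remained. Against WT HSPC pairs alone, 17686 neutrophil pairs were unlisted, and 6157 of these were listed through a mutant HSPC group.

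A smaller share of the neutrophil-only pairs ended at a promoter. Counted over pairs, a protein-coding start lay in the other end of 26.7% of neutrophil-only and 34.6% of shared pairs. For genes without a listed start site, either gene end was counted as a start. A gene body covered the other end in 45.0% and 39.5%, and it was intergenic in 28.3% and 25.9%. The other end was itself a bait in 26.5% against 35.8%, and in only 10.8% of the pairs of hubs. Of the 9698 other ends, 1397 met at least 2 baits, 291 at least 3 and 28 at least 5. The 3 that met 10 or more were all in the large histone cluster on chromosome 13: Prss16, a thymus-specific protease gene, met 12 baits, the olfactory receptor Olfr1359 met 11 and the zinc finger gene Zfp322a met 10. HSPC pairs joined the same other ends to 12, 23 and 20 baits, so meeting many baits there was not particular to neutrophils. Next, tied at 7 baits, came 4 other ends. The fragment of Nthl1 and Tsc2 and that of Syngr3 lie on chromosome 17, and no HSPC bait met them. The others were Pglyrp4, a peptidoglycan recognition protein, with 7 baits that include S100a1 with S100a13, S100a3, S100a14, S100a16, Ilf2 and Chtop, and Olfr805, with 7 olfactory receptor baits. HSPC pairs joined Pglyrp4 to 2 baits and Olfr805 to 13.

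Of the 10 pairs with the highest lower score, those of histone promoters were the longest. H4c4 with the Olfr1359 fragment, 1.88 Mb away, scored 20.8 and 21.6, and from the Olfr1359 bait 13.1 and 14.7. H4c2 with the fragment of H2ac11 and H4c9, 1.71 Mb away, scored 19.95 and 22.7. Also among the 10 were pairs of Sgms2, a sphingomyelin synthase, at 23.7 and 20.0, with a fragment also assigned to Sgms2, and at 26.2 and 18.5. For both histone pairs and the second Sgms2 pair, the HSPC files list the same bait with an adjoining fragment. This also held for the leading pairs of Klhl2 and B4galt6. Such a fragment lay 5.68 kb from the first Sgms2 pair and 55.2 kb from the leading Tmpo pair. The 5 longest pairs were Tcea1 with the body of Mroh2a over 83.4 Mb (7.30 and 11.9), Vps37a with Gins4 over 17.3 Mb from both baits (15.1 and 6.31, 12.7 and 5.51), Mzf1 with Psmc4 over 15.0 Mb (5.40 and 13.1), and Eipr1 with Rock2 over 11.9 Mb (5.75 and 6.29). An HSPC pair of the Tcea1 bait ended 9.10 kb from the Mroh2a fragment. For the others, the nearest fragment that the same bait met in HSPCs lay 11723.5 to 17786.2 kb away. At both Vps37a and Gins4 pairs and at Mzf1 the replicates differed by more than the lower score, and at Eipr1 they were close. Between chromosomes there were 2 neutrophil-only pairs, both from chromosome 4 baits to an unlocalized scaffold of that chromosome, against 44 shared ones.

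The share of neutrophil pairs that was neutrophil-only varied by chromosome from 35.5% on chromosome 7 and 36.4% on chromosome 12 to 58.3% on X and 60.9% on chromosome 18. Chromosome 6 (53.8%) and chromosome 1 (51.4%), which holds Selp, were also high.

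Gene lists placed these contacts among known functions. Of 11426 genes with a bait in either set of files, 4240 (37.1%) had at least 1 neutrophil-only pair, and 1.31% had at least 10. Counts for each list are read against the 37.1%. Over the 6198 genes with a neutrophil pair the background is 68.4%, and 5 lists change sides. Myeloid transcription factors (8 of 13), ribosomal protein genes (25 of 40) and chromatin architecture genes (3 of 5) then stand below it. The macrophage and dendritic list (3 of 3) and the olfactory and vomeronasal list (125 of 176) then stand above it. Some genes stand in several lists, such as Itgax, Gata2 and Flt3, and gene lists and members were chosen with earlier results of these data known, so no test is given.

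**Figure D4:**
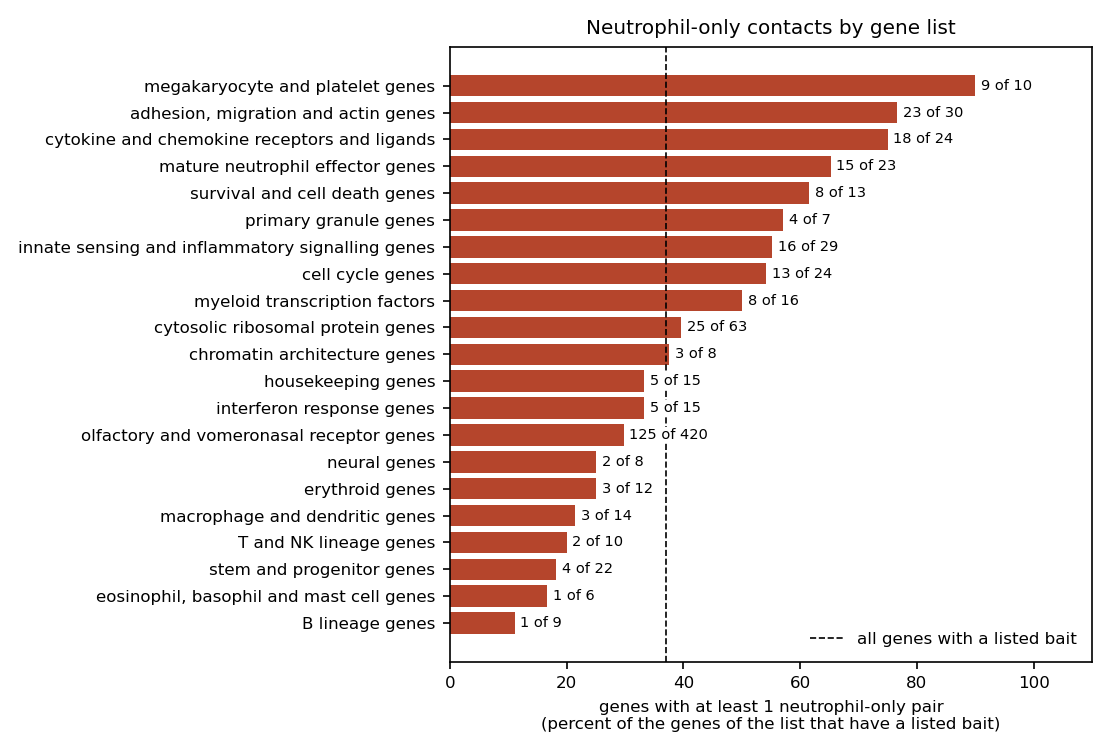
Percent of the genes of each list that have at least 1 neutrophil-only pair, over those with a listed bait, with the counts beside the bars. The dashed line is the 37.1% over all genes with a listed bait; adhesion genes stand at 23 of 30 and B lineage genes at 1 of 9.

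Both neutrophil lists stood above this background. Of the mature neutrophil effector genes 15 of 23 had a neutrophil-only pair. Beside Retnlg, Mmp8, the neutrophil collagenase, had 8 of 9 (means 8.05 and 7.20), and its best pair reached the promoter of Birc3 at 9.50 and 8.49. Cxcr2, the chemokine receptor, and Csf3r, the receptor of the granulocyte factor G-CSF, had 1 each. In the list of primary granule genes, made early in maturation, 4 of 7 had one: Mpo 2 of 3, Elane 1 of 5, Hspa5 1 of 1 and Calr 1 of 2. Hspa5 and Calr encode general chaperones of the endoplasmic reticulum and are not granule genes. The place of this list above the background rests in part on them. The best Mpo pair, with the promoter of Rnf43, scored 6.67 and 9.07.

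Adhesion, migration and actin genes stood at 23 of 30, with Dock5 and Elmo1 among the hubs and Actr3, of the Arp2/3 complex, at 9 of 18. Cytokine and chemokine genes stood at 18 of 24. Cxcr4, which holds neutrophils in the marrow, had 10 of 36 (means 7.88 and 6.99), its best pair with the body of Dars at 13.9 and 10.5. Ccl6 had 8 of 14, Il4ra 7 of 20 and Tnfrsf1a 4 of 6. Innate sensing genes stood at 16 of 29, led by Clec7a, the fungal receptor Dectin-1, with 11 of 16, Ltb4r1, a leukotriene receptor, with 9 of 9, and Alox5ap, of leukotriene synthesis, with 5 of 6. Nfkbia, an inhibitor of NF-kB, had many neutrophil pairs but only 4 of 39 neutrophil-only.

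Myeloid transcription factors had few such pairs each, and 8 of 16 had at least 1. Fosl2, an AP-1 subunit, had 6 of 18, Nfe2l2, of the oxidative stress response, 3 of 6, Klf6 3 of 3 and Cebpb 2 of 5. Spi1, which encodes PU.1, had 1 of 2 and Cebpa 1 of 1. Survival and cell death genes stood at 8 of 13, with Bbc3 and Bcl2l11, both pro-apoptotic, at 2 of 2 and 2 of 3, and Bak1 at 1 of 1. Cell cycle genes stood at 13 of 24: Aurka, a mitotic kinase that shares its bait with Cstf1, had 17 of 23, Mki67 14 of 26, Mcm6 6 of 18 and Rrm1 3 of 20.

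Lists of other blood cells stood below the 37.1%, except the megakaryocyte list. Stem and progenitor genes stood at 4 of 22 (Gata2 2 pairs, Sox4, Egfl7 and Flt3 1 each), erythroid genes at 3 of 12 (among them Car2 4 of 21 and Alas2 1 of 1), B lineage genes at 1 of 9 (Il7r), T and NK genes at 2 of 10 (Cd3e, Klrb1c), macrophage and dendritic genes at 3 of 14 (Itgax, Flt3, Ccr2), and eosinophil, basophil and mast cell genes at 1 of 6 (Gata2). Megakaryocyte and platelet genes stood at 9 of 10. There Pf4 and Ppbp share 1 bait beside Cxcl3; Vwf and Gp1bb had 2 pairs each and Clec1b, Itga2b, Gp6 and Gp1ba 1 each. Whether platelet or megakaryocyte chromatin took part was not tested.

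The remaining lists stood between 25.0% and 39.7%. Interferon response genes stood at 5 of 15, led by Ifit1 with 4 of 4 and Ifit2 and Gbp2 with 2 each. Neural genes stood at 2 of 8 (Neurog2 and Olig2), housekeeping genes at 5 of 15 (among them Pgk1 3 of 4, B2m 2 of 2 and Actb 1 of 5), and chromatin architecture genes at 3 of 8 (Lmnb1 3 of 3, Smc1a and Lbr 1 of 1). Cytosolic ribosomal protein genes stood at 25 of 63, led by Rps12 with 6 of 9 and Rps14 with 4 of 9, and olfactory and vomeronasal receptor genes at 125 of 420, led by Olfr1359 with 16 of 18 and Olfr1441 with 6 of 6.

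Some hubs carry microRNA genes. Of 1005 hairpins in the RefSeq table (GRCm38.p6), 176 lay in a fragment of a neutrophil-only pair and 11 in a hub bait. Among the 11, Mir302a to Mir302d and Mir367 share 1 bait. Beside this, 150 of 11426 genes with a bait (1.31%) had at least 10 neutrophil-only pairs. Hairpins in any listed bait were not counted, so the 11 are not read as an excess. The hub bait chr7:135564910-135566493 within Ptpre holds Mir1962 and had 29 pairs, and chr1:74205269-74207981 holds Mir1928 and had 28, the best at 15.0 and 17.2. The bait chr3:127545151-127550415 within Larp7 holds the Mir302 cluster with Mir367, known from pluripotent cells, and had 15 pairs, the best at 10.2 and 13.6. Mir101a lies in a hub of 12, chr4:101344242-101353932. Mir223, a microRNA abundant in granulocytes, had 1 pair from its bait (5.62 and 6.36, 42.5 kb). These baits had HSPC pairs as well: 16 for Mir1962, 24 for Mir1928, 11 for the Mir302 cluster, 4 for Mir101a and 1 for Mir223. The mature sequences are shown to tell apart which of these hubs share a seed, written in capitals (bases 2 to 8).
mmu-miR-1962: aGAGGCUGgcacugggacacau
mmu-miR-1928: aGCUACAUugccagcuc
mmu-miR-302a-5p: aCUUAAACgugguuguacuugc
mmu-miR-302b-5p: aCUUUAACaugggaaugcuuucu
mmu-miR-302c-5p: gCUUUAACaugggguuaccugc
mmu-miR-302d-5p: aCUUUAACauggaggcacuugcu
mmu-miR-302b-3p: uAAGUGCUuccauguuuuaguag
mmu-miR-302d-3p: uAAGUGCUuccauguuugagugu
mmu-miR-302c-3p: aAGUGCUUccauguuucagugg
mmu-miR-101a-3p: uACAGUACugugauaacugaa
mmu-miR-223-3p: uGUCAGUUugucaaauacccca

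The seed CUUUAAC is shared by miR-302b-5p, miR-302c-5p and miR-302d-5p, and AAGUGCU by miR-302b-3p and miR-302d-3p. Those of miR-302a-5p (CUUAAAC) and miR-302c-3p (AGUGCUU) differ from them. All of them come from 1 bait and so share its contacts. Mir1962 (GAGGCUG), Mir1928 (GCUACAU), miR-101a-3p (ACAGUAC) and miR-223-3p (GUCAGUU) share a seed with none of the others shown.

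The mutant HSPC groups allow a test of a contrast that the neutrophil rule did not use: whether hub promoters scored differently in mutant and WT HSPCs. The rule used the HSPC listing, but no difference between HSPC groups. Only pairs in the HSPC files have HSPC scores, so no neutrophil-only pair entered this test. Its calls describe other contacts of the hub baits. Each bait was given its mean of log2(score + 1) over pairs listed through groups outside the comparison, with at least 10 such pairs, and all baits were fitted with limma. In each comparison a group outside it carries an allele of the mutant tested, which limits how separate the choice of pairs is. Over all baits tested, Npm1c called 2 promoters higher (0.102%) and 0 lower of 1960 (210 at an unadjusted p under 0.05). Both were outside the hubs: Plk2 with 1 neutrophil-only pair and Fat4 with none, named because they are all the calls. Of the 70 hubs tested in Npm1c, 0 were called by limma and 5 had an unadjusted p under 0.05.

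Flt3-ITD called 134 of 1858 promoters higher (7.21%) and 0 lower, and 6 of the 68 hubs tested were among those higher. They were Sgms2, Sstr4, a somatostatin receptor, Parp8, an ADP-ribosyltransferase, Uba6, a ubiquitin-activating enzyme, Ccng1, cyclin G1, and chr12:91789795-91792223, which holds no gene start. Sgms2 stood at 2.31 and 1.70 in the WT and at 2.67 and 2.88 in the Flt3-ITD libraries on this log2 scale, a difference of 0.77 (SE 0.20, limma adjusted p = 0.0393). Uba6 stood at 2.39 and 2.44 against 3.15 and 2.99. The groups did not overlap at Sgms2 or Uba6. The median of all tested promoters was shifted by 0.28 and that of the hubs by 0.33. With quantile normalization, which brought the overall median to 0.01, the calls were 5 higher and 2 lower and none of the 6 hubs was called (limma adjusted p of 0.212 to 0.397), while 1 other hub was lower. The calls on all 6 hubs were also lost in limma without WT replicate 2 (adjusted p of 0.126 to 0.284), without either Flt3-ITD replicate, and with a minimum of 5 or 3 pairs per bait. A pseudocount of 0.1 left Uba6 and Ccng1 called.

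DM called 117 of 1841 promoters higher (6.36%) and 22 lower (1.20%); of the 62 hubs tested 5 were higher and 1 lower. Parp8 stood at 2.50 and 1.76 in WT and at 3.45 and 3.58 in DM HSPCs, a difference of 1.39 (SE 0.22, limma adjusted p = 0.00707). Slc40a1, which encodes the iron exporter ferroportin, stood at 3.27 and 3.40 in WT and 2.16 and 2.19 in DM, a difference of -1.15 (SE 0.18, limma adjusted p = 0.00707). Sstr4 was higher by 1.01 (SE 0.19, limma adjusted p = 0.0150), and Pigb with Pigbos1 by 0.57 (SE 0.15, limma adjusted p = 0.0419). The 2 further calls, chr10:95555035-95562851 in Nudt4 and chr19:25163311-25171742 in Dock8, hold no gene start. With quantile normalization 82 promoters were higher and 133 lower, and 2 hubs were higher and 6 lower; Parp8, Sstr4 and Slc40a1 were still called. Without WT replicate 2 limma called 0 promoters (284 at an unadjusted p under 0.05), and the 6 hubs had adjusted p of 0.0943 to 0.343. Without DM replicate 2 limma called 4 promoters, none of them a hub (adjusted p of the 6 hubs 0.0563 to 0.201).

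**Figure D5:**
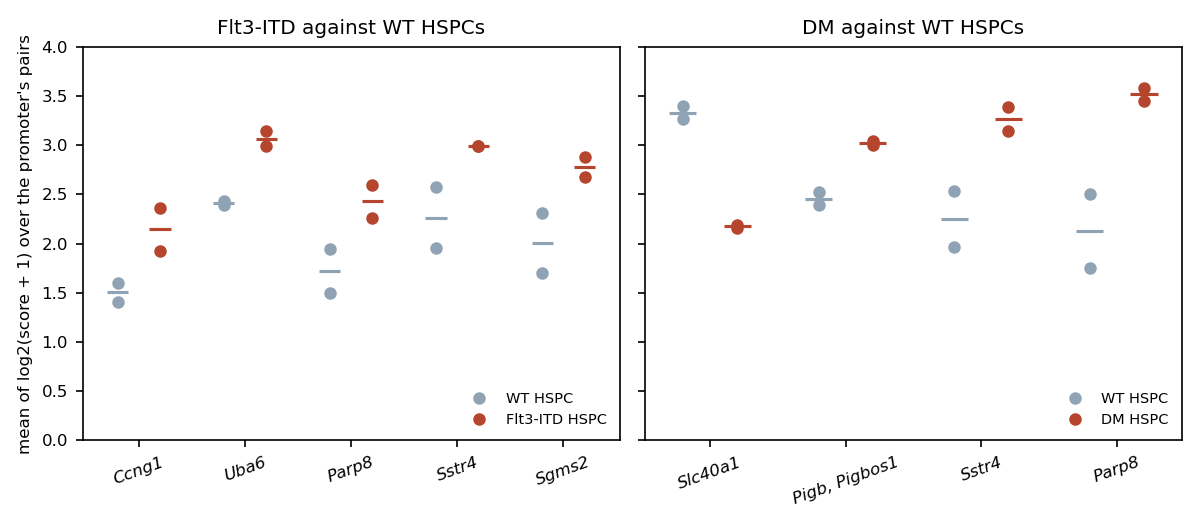
Mean of log2(score + 1) of the gene-bearing hub promoters called by limma in Flt3-ITD (left) and DM (right) against WT HSPCs; points are the 2 replicates of a group and short lines their mean. Slc40a1 is lower in DM, at 2.16 and 2.19 against 3.27 and 3.40, and the other promoters drawn are higher in the mutant.

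The leading neutrophil hubs were not among these calls where they could be tested. Klhl2 differed by 0.42 (SE 0.20) in Npm1c, 0.62 (SE 0.20) in Flt3-ITD and 0.43 (SE 0.17) in DM HSPCs (limma adjusted p = 0.465, 0.0650 and 0.134). Tmpo differed by 0.02, 0.03 and -0.01 (SE 0.19, 0.18 and 0.18) in the same order. Rwdd2b differed by -0.15, 0.15 and -0.49 (SE 0.19, 0.20 and 0.19), and Dock5, which could be tested in DM only, by -0.07 (SE 0.18). Selp, Cxcl3, Retnlg and the other leading hubs had too few such HSPC pairs for the test.

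Pairs of hub baits were also described by the share at 5 or more in each HSPC library, over the 2589 HSPC pairs of these baits. In the WT libraries it was 56.4% and 46.7%, and in the Npm1c libraries 49.0% and 63.4%. In the Flt3-ITD libraries it was 66.7% and 68.0%, and in the DM libraries 64.5% and 66.2%. The Flt3-ITD and DM libraries lay above both WT libraries, while 1 Npm1c library lay between the WT libraries and 1 above them. The means were 51.5% ± 6.80 (SD, n = 2), 56.2% ± 10.2, 67.3% ± 0.956 and 65.4% ± 1.26, and the differences from WT had a two-sided exact permutation p of 0.667, 0.333 and 0.333. With 2 against 2 libraries 0.333 is the smallest p possible. A pair was among the 2589 because some HSPC group, which may be a compared one, reached 5 in both its libraries. The shares and p-values are thus not separate from that choice of pairs, and no conclusion is drawn from them. HSPC pairs of baits with no neutrophil-only pair averaged 49.0% in WT, 56.1% in Npm1c HSPCs, 62.6% in Flt3-ITD HSPCs and 59.9% in DM HSPCs.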

How the data were processed

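The 10 libraries were grouped by their titles. Per the labels' protocols, cells were fixed in 1% formaldehyde for 10 minutes, chromatin was cut with HindIII, and 39684 probes captured 22047 promoters; per the submitters' processing notes the build was mm10. The interaction caller and aligner are not given in the sources used here. The authors deposited 1 interaction score per pair and library, and a further column with another quantity, the distance in bp from bait to other end. The files hold no read counts, so depth is unknown and only replicate spread limits precision.

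From these scores, pairs were joined by the coordinates of both fragments (Python 3.11.15, pandas 2.3.3). A gene was given to a fragment that holds its RefSeq start site (GRCm38.p6 promoter table) or, for genes absent from that table, its start or end in the gene table, which has no strand; this placed promoters by position only. In this way 11426 genes had a listed bait. For differences between HSPC groups, limma 3.58.1 (run in R 4.3.3) gave moderated two-sided p-values on log2 of the deposited score plus a pseudocount of 1. These were adjusted after Benjamini and Hochberg over all baits with 0.05 as the threshold, with the 8 HSPC libraries in 1 fit. The procedure was tested on simulated data. The simulated noise was independent in each library, with no shift shared by all promoters, so it cannot show how such a shift affects the calls. Alternatives were the matching window, the score minimum, the HSPC groups compared, quantile normalization, the pseudocount, the pairs per bait, a replicate block and leaving out each library.

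Named genes were the 10 gene-bearing baits with the most neutrophil-only pairs, the 10 pairs with the highest lower score, the 5 baits with the highest neutrophil-only share among those with at least 10 pairs, the 5 most met other ends, the 5 longest pairs, up to 3 between chromosomes, up to 4 genes per list, called hubs, and the 5 leading baits without HSPC pairs. Further named genes lie beside these or complete a list and were chosen after their values were seen. Members and the 21 gene lists were chosen with earlier results of these data known. A few items that these rules select are not reported here.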

Additional observations from a re-analysis of the deposited data

How the results depend on the processing

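The count, share, median distance and hubs depended on how a pair was matched. With HSPC pairs within 10 kb set aside, 7127 pairs (27.8%, 159 kb, 81 hubs) remained, and within 50 kb 4958 (19.4%, 154 kb, 46 hubs). With exchanged pairs set aside, 42.9% remained at a median of 163 kb. Scores of at least 7 in both replicates left 2204 pairs (26.8%, 163 kb, 20 hubs), and of at least 10 left 248 (12.0%, 173 kb, 2 hubs). Against WT HSPCs alone there were 17686 (69.0%, 166 kb, 340 hubs). On baits listed in HSPCs the share was 41.0% and the median 168 kb. Leaving out each neutrophil replicate, with 10 or more in the one kept, gave 966 to 1009 pairs, 20.2% to 21.9%, 181 to 190 kb, and 9 to 10 hubs. Restricting the pairs to 1 autosome or X left all 4 values within the limits used.

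Promoters called by limma also moved. For Npm1c minus WT (2 as reported) the count was 0 with quantile normalization (157 unadjusted), a pseudocount of 0.1, or at least 5 or 3 pairs per promoter, 32 with all listed pairs, and 1 to 3 with 1 library left out; the 3 without Npm1c replicate 2 were all lower, against 2 higher as reported. For Flt3-ITD (134) it was 7 with quantile normalization, 75 with a pseudocount of 0.1, 33 and 1 with at least 5 and 3 pairs, 280 with all listed pairs, and 0 to 465 with 1 library left out (465 and 12 when WT replicate 1 or 2 was dropped, 15 and 0 for the Flt3-ITD libraries in that order). For DM (139) it was 215, 46, 119, 68 and 615 in the same order, and 0 to 233 with 1 library left out (233 and 0 when WT replicate 1 or 2 was dropped, 23 and 4 for the DM libraries). The causes were not tested. Same-numbered replicates did not deviate together (correlations of -0.0124 to 0.0613), so they share only a number; a replicate block gave 1, 68 and 112 calls, with none of the 6 Flt3-ITD hubs among them (limma adjusted p of 0.05004 to 0.0637) and 4 hubs in DM.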
